A study of Mus musculus with 4 samples.

Results

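Apol7a and Apol7c are 2 of the 28692 genes counted in single cells of the mouse colon, and both were described here across the 4771 of 6954 cell barcodes that held at least 1000 unique molecular identifiers (UMIs, each of which tags 1 captured RNA molecule). Both genes were chosen by their summed level in DEP against PBS mice and by their level among the leading genes of macrophage clusters, as earlier results of these data had shown them. Their differences between DEP and PBS mice, and their levels along maturation, are therefore given as a description, without a test.

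The colon lamina propria of 4 male C57/Bl6N mice was sorted for CD11b+ cells that were also Ly6C+ or CD64+, a gate for monocytes and macrophages, and the cells of each mouse were run in a well of their own with 10x Genomics 3′ v2 chemistry. DEP 11 and DEP 13 had been gavaged with 12 µg diesel exhaust particles (DEP) in 200 µL PBS over about 6 months, 5 days in each week. PBS 2 and PBS 3 had received PBS alone on the same schedule. No group carried a genetic change by the labels, and each group was 2 mice. DEP 11 gave 1218 kept barcodes, DEP 13 gave 675, PBS 2 gave 1296 and PBS 3 gave 1582, with median depths of 5328.5, 5794, 7115.5 and 5367.5 UMIs. A C1qa UMI, a marker of macrophages, was found in 95.9 to 99.1% of the barcodes of a mouse, but also in 93.5% of 107 barcodes that carried mostly lymphoid markers, so a C1qa UMI alone does not mark a macrophage. A barcode code occurred in 2 mice in 36 cases.

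Apolipoprotein L proteins are lipid-binding proteins that can insert into membranes and, in some members, form ion channels; human APOL1 is known for lysing trypanosomes. Rodents carry their own expanded set of Apol genes, and Apol7c has been linked to phagosome rupture and antigen cross-presentation in dendritic cells. In the colon, Ly6C+ CCR2+ blood monocytes enter the mucosa and lose Ly6c2 and then Ccr2 as they turn into resident macrophages, which gain the complement component C1q.

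Both genes lie on the minus strand of chromosome 15 (mm10, GENCODE M21). Apol7a (ENSMUSG00000010601) spans chr15:77388219-77399110 and Apol7c (ENSMUSG00000044309) spans chr15:77524852-77533316, with 125.741 kb and 4 other Apol genes (Apol9a, Apol7b, Apol10a and Apol11a) between them. The 250 bases before the RefSeq start of each gene are shown, because both genes were high in the same barcodes and their upstream sequences can be set side by side. They were taken from RefSeq promoters of GRCm38.p6 (the mm10 assembly), read 5′ to 3′ on the minus strand, at chr15:77399111-77399360 for Apol7a and chr15:77533316-77533565 for Apol7c. The last base of the Apol7c stretch is also the first base of that gene in GENCODE M21. Capitals mark matches to the motifs searched.
Apol7a: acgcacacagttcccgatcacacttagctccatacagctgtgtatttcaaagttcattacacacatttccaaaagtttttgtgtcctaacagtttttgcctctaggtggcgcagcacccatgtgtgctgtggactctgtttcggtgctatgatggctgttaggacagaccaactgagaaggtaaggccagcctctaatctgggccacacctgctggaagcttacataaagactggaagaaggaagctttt
Apol7c: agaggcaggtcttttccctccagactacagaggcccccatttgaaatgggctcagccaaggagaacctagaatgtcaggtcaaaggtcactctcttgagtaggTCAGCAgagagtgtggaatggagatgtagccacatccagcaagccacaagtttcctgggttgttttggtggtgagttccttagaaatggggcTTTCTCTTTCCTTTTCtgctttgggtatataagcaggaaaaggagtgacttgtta

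The Apol7c stretch held 2 overlapping matches to the core of the interferon-stimulated response element (TTTC, any 2 bases and TTTC again), with starts 55 and 49 bases before the gene start on the strand of the gene. Of 32851 mouse promoters of the same 300 bases (250 before and 50 after the start), 3.44% held a match on either strand. A MAF recognition core, TGCTGA, matched the opposite strand 147 bases before the start, and 19.5% of all promoters held that motif. Apol7a held no match to the interferon-stimulated response element or the MAF recognition core. Neither promoter matched the gamma-activated site (TTCNNNGAA), NF-kB (GGGA, any base and TTTCC), AP-1 (TGANTCA), PU.1 (GAGGAAGT), the ETS core (GGAAGT), RUNX (TGTGGT), C/EBP (TTGCNNAA), the E-box (CACGTG), the dioxin response element core (GCGTG) or the TATA box (TATAAA), each searched on both strands. Aligned end to end, the promoters of Apol7a and Apol7c were identical at 46.6% of the aligned columns, while that of Apol7c was identical to those of Apol7e and Apol7b at 72.7% and 70.4%. These matches describe letters only.

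Apol7c was the most abundant of the 14 Apol genes in the table, and Apol7a the next. Apol7c had 5834 UMIs in the 4771 barcodes and Apol7a had 752. Apol10b followed with 102 and Apold1, a relative outside the chromosome 15 cluster, with 57. A further 8 genes (Apol7b, Apol7d, Apol7e, Apol8, Apol9a, Apol9b, Apol10a and Apol11b) had between 1 and 14 UMIs. Apol6 and Apol11a had 0 UMIs, which allows up to 0.298 to 0.689 counts per 1000000 UMIs (CPM) per mouse, depending on its depth. Transcripts of near copies can share reads. Of the 50-base words in the transcripts of Apol7a, 15.5% also occurred in another gene, and of those of Apol7c 25.6% did, in each other, in Apol7b and Apol7e or in genes outside the family. In the last 500 bases of the longest transcript, near the end that the assay reads, 35 of 451 words of Apol7a occurred in Apol7c and 37 of 451 words of Apol7c occurred in Apol7a. Values of both genes are uncertain for that reason, by an amount that was not measured.

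Apol7a was higher in both DEP mice than in both PBS mice. Its summed level was 34.5 CPM in DEP 11 (253 UMIs), 52.8 in DEP 13 (230 UMIs), 16.6 in PBS 2 (167 UMIs) and 10.6 in PBS 3 (102 UMIs). The 2 groups did not overlap, and the lower DEP mouse stood 2.08-fold above the higher PBS mouse. The means were 43.7 ± 12.9 and 13.6 ± 4.26 CPM (SD, n = 2 each), a ratio of 3.22. In the edgeR fit over all genes its log2 fold change was 1.69 (SE 0.28). A UMI of Apol7a was found in 11.7% and 13.2% of the barcodes of the DEP mice (11 and 13) and in 7.02% and 4.36% of those of the PBS mice (2 and 3). After each barcode was thinned to 1000 UMIs, so that depth could not set the share, these became 1.81%, 2.52%, 1.08% and 0.759%, in the same order of mice.

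Apol7c was also higher in both DEP mice, by a smaller factor. DEP 11 had 262 CPM and DEP 13 had 249, whereas PBS 2 had 174 and PBS 3 had 112. The DEP mice were close to each other, the PBS mice were further apart, and the groups did not overlap. The means were 255 ± 9.50 and 143 ± 43.4 CPM (SD, n = 2 each), a ratio of 1.79, and the fitted log2 fold change was 0.85 (SE 0.19). The share of barcodes with a UMI was 33.3% and 30.8% in the DEP mice against 29.6% and 21.1% in the PBS mice, and 13.8%, 10.7%, 9.57% and 6.45% after thinning. Both DEP mice stood above both PBS mice in 13.8% of the 6609 genes tested, so such a pattern was common with 2 mice a group. At a false discovery rate of 5% edgeR's quasi-likelihood test called 0 of 6609 genes (0%), while 171 (2.59%) had an unadjusted p under 0.05 and DESeq2 called 4.

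**Figure D1:**
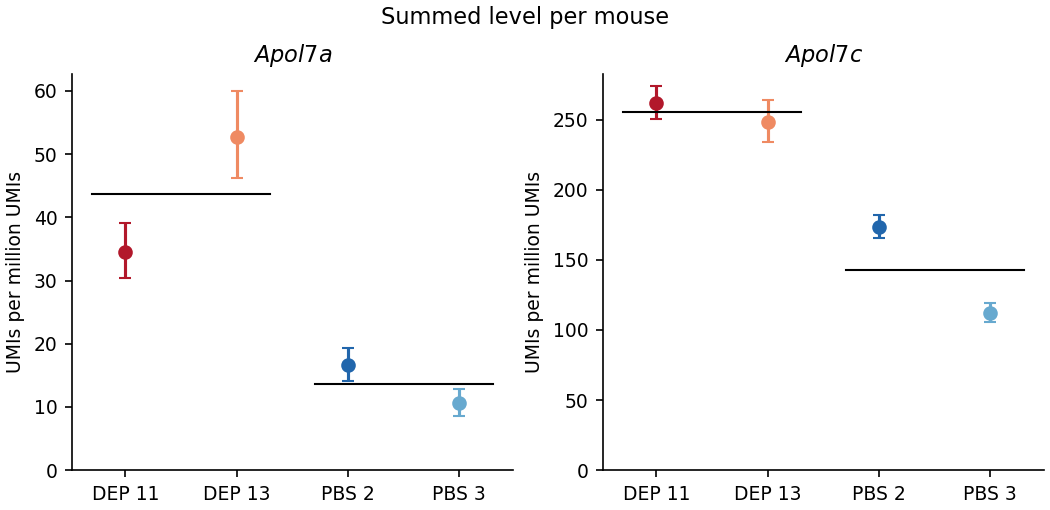
Level of Apol7a (left) and Apol7c (right) in CPM, summed over the barcodes of each mouse. Points are mice, bars are exact 95% Poisson intervals (counting error only) and lines are group means; the DEP mice lie at 34.5 and 52.8 for Apol7a and at 249 and 262 for Apol7c, above the PBS mice.

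Over all barcodes, the 3 genes used to order the cells did not separate the groups. C1qa ranged from 3701 to 4607 CPM over the 4 mice, Ly6c2 from 157 to 220 and Ccr2 from 409 to 495, and each overlapped between DEP and PBS. Apol7a and Apol7c also stayed apart within the barcodes at or above the median C1qa level of their mouse. Both DEP mice stood above both PBS mice in 14.6% of the 7095 genes tested in these barcodes. There Apol7a stood at 54.5, 81.2, 23.2 and 16.4 CPM in DEP 11, DEP 13, PBS 2 and PBS 3, with a log2 fold change of 1.78 (SE 0.24). Apol7c stood at 399, 370, 241 and 169, with a log2 fold change of 0.92 (SE 0.18). In these cells edgeR called 2 of 7095 genes at a false discovery rate of 5% (0.0282%). Apol7a was 1 of them, which is no test of it, since it had been chosen on this contrast. The other was Hspb1, a small heat shock protein named here after its value was seen, at 10.4 and 23.9 CPM in the DEP mice against 58.0 and 111 in the PBS mice. That count fell to 0 when barcodes down to 500 UMIs were added, when lymphoid-marked barcodes or called doublets were left out, or after thinning. It rose to 6 at a minimum of 2000 UMIs, to 77 without a gene filter and to 4 with DESeq2. Of 12 monocyte markers tested in the same cells 0 were called (smallest adjusted p 0.392 by edgeR), 4 had an unadjusted p under 0.05 and 7 lay lower in both DEP mice than in both PBS mice (15.1% of all genes did), with a median log2 fold change of -0.38 against -0.0025 for all genes. Ly6c2 itself stood at 52.4 and 25.5 CPM in the DEP mice against 67.9 and 52.4 in the PBS mice, a log2 fold change of -0.58 (SE 0.25), and Ccr2 at 271 and 233 against 296 and 295. Their part in the Apol7a and Apol7c values was not tested.

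Both genes were lowest where Ly6c2, the marker of newly arrived monocytes, was highest. Barcodes with no Ly6c2 UMI formed a bin of their own, and those with a UMI were divided into terciles within each mouse. Apol7c went from 275 CPM in the Ly6c2-free barcodes of DEP 11 to 35.6 in its upper tercile, from 185 to 21.1 in PBS 2 and from 124 to 12.5 in PBS 3. In DEP 13 it was 308 in the Ly6c2-free barcodes, and the upper tercile held 5 Apol7c UMIs. The upper tercile was 7.71- to 23.7-fold lower over the 4 mice. After thinning to 1000 UMIs the log2 ratio of the bin means over 4 mice went from -3.44 to -2.05 for Apol7c and from -4.58 to -2.58 for Apol7a. Ly6c2 does not mark monocytes alone, since it stood at 523 CPM in the 107 lymphoid-marked barcodes against 184 in the others. With those barcodes left out the log2 ratio was -3.51 for Apol7c and -4.29 for Apol7a. Apol7a had 483 UMIs in the 2795 barcodes without Ly6c2 and 4 UMIs in the 658 barcodes of the upper tercile. In DEP 11, PBS 2 and PBS 3 the lower Ly6c2 tercile held more Apol7c (407, 263 and 170 CPM) than the Ly6c2-free barcodes. In DEP 13 it held less of both genes, with 259 against 308 CPM for Apol7c and 42.0 against 69.2 for Apol7a.

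C1qa, the complement subunit that marks mature macrophages, ran the other way. Apol7a stood at 4.30, 4.22, 0.772 and 2.19 CPM in the lower C1qa tercile of DEP 11, DEP 13, PBS 2 and PBS 3, and at 61.5, 83.2, 27.0 and 17.0 in the upper tercile. Apol7c went over the same terciles from 40.1 to 431, from 27.0 to 385, from 23.2 to 251 and from 25.2 to 165 CPM. All 4 mice shared the direction, with 6.54- to 14.2-fold more Apol7c in the upper than in the lower tercile. Most of the difference lay between the lower and the middle tercile, and the upper was 1.28- to 1.62-fold above the middle one for Apol7c. The 117 barcodes without a C1qa UMI held 7 Apol7c UMIs and no Apol7a, so 0 of 117 barcodes, which allows a share of up to 2.56% of barcodes with a UMI. It does not limit the cells that express Apol7a, since these barcodes were shallow.

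Low levels of C1qa and Apol7c could not be told from free RNA. C1qa stood at 1129 to 1840 CPM in the barcodes under 500 UMIs, above its 660 to 1074 CPM in the lower C1qa tercile. The 1614 barcodes under 500 UMIs, too shallow to be kept as cells, had 29 Apol7c UMIs or 61.5 CPM, more than the lower C1qa tercile of any mouse. Apol7a had 0 UMIs in those barcodes, which allows up to 6.36 CPM. The 107 lymphoid-marked barcodes, which should lack both genes, had a median depth of 17365 UMIs against 5806 for the others. An Apol7c UMI was found in 29.0% of them against 27.9% of the other barcodes, and after thinning in 4.67% against 9.88%. For Apol7a the shares were 7.48% and 8.23%, and 0% and 1.39% after thinning; 0 of 107 allows a share of up to 2.80% of barcodes with a UMI.

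Ccr2, the receptor that brings monocytes into tissue, gave a less even picture. Apol7c stood at 346, 379, 157 and 59.0 CPM in DEP 11 from the Ccr2-free barcodes through the lower, middle and upper terciles. In DEP 13 the values were 236, 380, 231 and 58.1, and in PBS 2 they were 188, 230, 194 and 41.8. The lower tercile was the highest bin and the upper tercile the lowest in these 3 mice. PBS 3 was at 113, 117, 124 and 87.9, with its upper tercile below the others but by less than in the other mice. Apol7a went from 54.2, 86.6 and 23.2 in the lower tercile of DEP 11, DEP 13 and PBS 2 to 3.69, 9.46 and 2.38 in the upper one, and from 13.4 to 10.2 in PBS 3. That upper tercile of PBS 3 stood above its Ccr2-free barcodes (7.31) and its middle tercile (9.65). The groups overlapped in the upper Ccr2 tercile for both genes, where the DEP to PBS ratio of means was 1.05 for Apol7a and 0.903 for Apol7c, and in the middle Ly6c2 tercile, where it was 1.15 and 1.04. Apol7c also overlapped in the lower and upper Ly6c2 terciles, in the middle Ccr2 tercile and in the barcodes without C1qa.

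**Figure D2:**
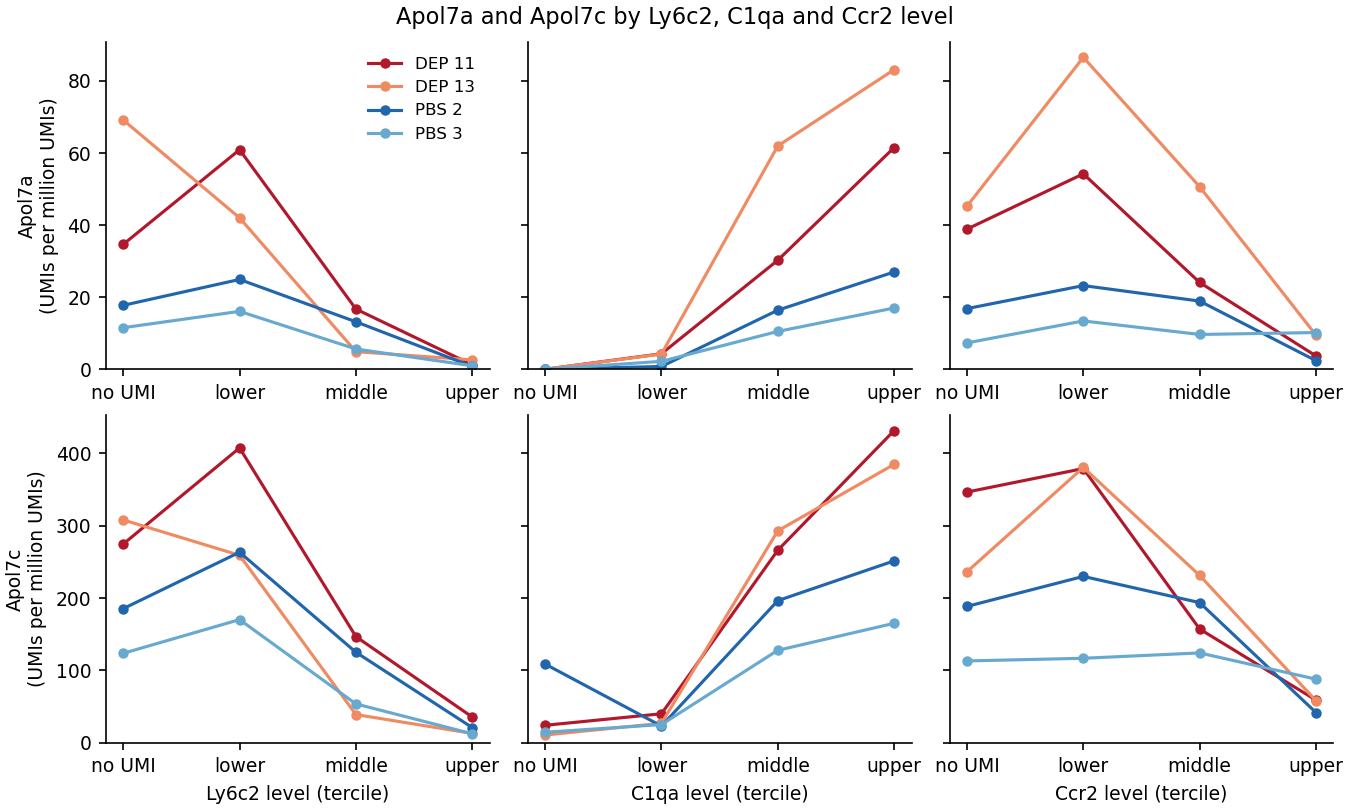
Level of Apol7a (top) and Apol7c (bottom) in CPM, in barcodes without a UMI of Ly6c2, C1qa or Ccr2 and in the lower, middle and upper tercile of barcodes with one. Each line is a mouse; both genes are higher with more C1qa in the terciles of all 4 mice and lowest in the upper Ly6c2 tercile, while along Ccr2 the upper tercile of PBS 3 is less far below its other bins than in the other mice for Apol7c, and DEP and PBS mice overlap in the upper Ccr2 and middle Ly6c2 terciles.

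Taking C1qa and Ccr2 together, the mean of the 4 mice was highest for both genes in the upper C1qa and lower Ccr2 tercile, a bin that was the peak in the DEP mice and in neither PBS mouse. The mean there was 61.9 CPM for Apol7a (range 16.1 to 131) and 364 for Apol7c. Within the upper C1qa tercile, PBS 2 was highest in the middle Ccr2 tercile (33.1 CPM for Apol7a and 311 for Apol7c, against 30.8 and 260 in the lower). PBS 3 was highest in the upper Ccr2 tercile (46.0 and 251, against 16.1 and 135 in the lower). The Ccr2-free barcodes had means of 34.3 for Apol7a and 261 for Apol7c, below those of the lower Ccr2 tercile, but in PBS 3 they held more Apol7c (146 against 135). In the lower C1qa tercile no Ccr2 bin had a mean above 5.41 for Apol7a or 43.9 for Apol7c. The scarcest of these bins held at least 15 barcodes in each mouse.

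**Figure D3:**
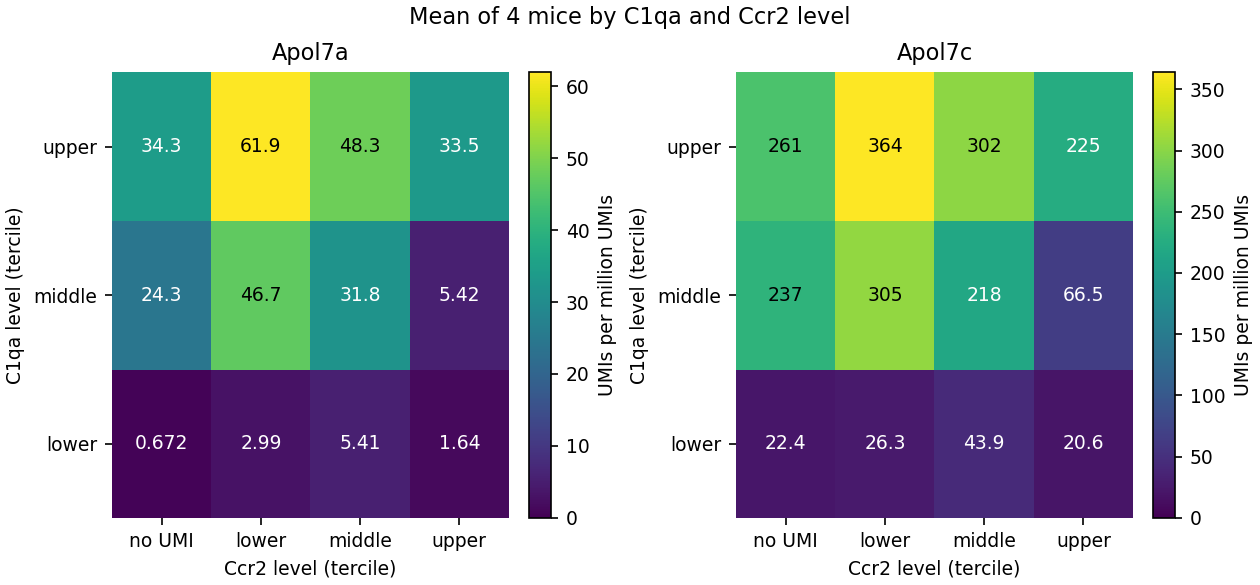
Mean level of Apol7a (left) and Apol7c (right) over 4 mice in CPM, by tercile of C1qa (rows) and by Ccr2 bin (columns). The upper C1qa and lower Ccr2 bin has the highest mean for both genes, 61.9 and 364, though it is not the peak of either PBS mouse, and the lower C1qa row stays at or below 5.41 and 43.9.

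Nearly every barcode with Apol7a also held Apol7c. Of 392 barcodes with an Apol7a UMI, 373 (95.2%) had an Apol7c UMI too, and between 93.4 and 97.8% did in each mouse. The reverse share was lower: of 1330 barcodes with Apol7c, 28.0% held Apol7a. DEP 11 had 33.6% and DEP 13 had 41.8%, against 22.2% for PBS 2 and 19.5% for PBS 3. Both DEP mice thus stood above both PBS mice.

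Apol7c was concentrated in few barcodes. Classes of 0, 1 to 2, 3 to 9 and 10 or more Apol7c UMIs, set after the values were seen, held 3441, 818, 349 and 163 barcodes. The class of 10 or more was 3.42% of barcodes and held 52.2% of the Apol7c UMIs and 55.7% of the Apol7a UMIs. In PBS 3 it was 1.58% of barcodes and held 37.7% and 36.3% of these UMIs. In the other mice it held 53.6 to 57.3% and 53.8 to 65.9%. The barcodes of this class were deep, with a median of 10698 UMIs against 5219 in the class without Apol7c. Apol7a was higher in each higher class in all 4 mice, and in the highest class it reached 233 and 409 CPM in DEP 11 and DEP 13 against 160 and 150 in PBS 2 and PBS 3. In barcodes without Apol7c it lay between 0.577 and 1.73.

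The barcodes with 10 or more Apol7c UMIs held more of the macrophage maturation markers and less of the monocyte markers than those without Apol7c. C1qa was at 5992 CPM there against 3528 in barcodes without Apol7c, Ccr2 at 231 against 530 and Ly6c2 at 49.8 against 259. The summed monocyte markers ranged from 583 to 1000.5 CPM over the mice, against 3121 to 4392 without Apol7c, and the maturation markers from 48766 to 64971 against 33246 to 43040. The summed list of general macrophage markers was lower in the class, at 34959 to 35990 against 38905 to 44057, and Lyz2, the abundant lysozyme gene of that list, was at 21677 against 27527. Of the other macrophage genes read singly, Adgre1 was higher in the class without overlap between mice, at 405 to 446 CPM against 338 to 381. The growth factor receptor Csf1r (704 against 553 in the pooled barcodes), Cd68 (613 against 550), the Fc receptor Fcgr1, or CD64 (243 against 209), the chemokine receptor Cx3cr1 (404 against 346), the mannose receptor Mrc1 (162 against 150) and Mertk, a receptor for dying cells (24 UMIs, and 9.45 CPM without Apol7c), had ranges over mice that overlapped. So did Itgam, the CD11b gene of the sort, which was lower in the pooled class (77.4 against 96.2). Dendritic cells were also looked for, since Apol7c is known there. Xcr1, the chemokine receptor of conventional type 1 dendritic cells, had 2 UMIs in the 163 barcodes (1.08 CPM, against 0.46 without Apol7c), and Clec9a, their receptor for dead cells, had 5 (2.71 against 0.817). The growth factor receptor Flt3 had 2 (1.08 against 4.29) and the transcription factor Zbtb46 had 0 (against 0.306). Of 3 markers of other dendritic cells read singly, Fscn1, an actin-bundling protein, had 23 UMIs in 3 barcodes (12.4 CPM against 1.48), the chemokine receptor Ccr7 had 17 UMIs in 6 barcodes (9.20 against 6.23) and the lectin Cd209a was at 10.8 against 49.2. Fscn1 and Ccr7 were each at 0 in this class in at least 1 mouse. The whole list of type 2 and migratory dendritic cell markers overlapped, at 412 to 602 CPM in the class against 417 to 492 without Apol7c. The part of dendritic cells in the Apol7c level was not tested. The whole list of type 1 dendritic cell markers, which includes genes that macrophages also express, summed to 651 to 789 CPM over the mice in this class and to 590 to 766 without Apol7c. Of that list, the transcription factor Irf8 was higher in the class (378 to 451 against 253 to 343), while Batf3 overlapped (81.3 to 108 against 79.5 to 112). Doublets (58 of 4771 barcodes by scrublet, 22 of them in DEP 13) were kept.

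Apol7a made up a larger part of the pair in DEP mice. This follows from the summed levels above, on which both genes were chosen. The DEP to PBS ratio of means was 3.22 for Apol7a and 1.79 for Apol7c, so the share is no separate result. The Apol7a share of the UMIs of both genes was 11.6% in DEP 11 (exact binomial 95% limits 10.3 and 13.1) and 17.5% in DEP 13 (limits 15.5 and 19.7). PBS 2 had 8.72% (limits 7.49 and 10.1) and PBS 3 had 8.60% (limits 7.07 and 10.3). The groups did not overlap, and the means differed by 5.92 percentage points. DEP 13 stood apart from DEP 11 more than the PBS mice did from each other. The order held in the upper C1qa tercile, at 12.5%, 17.8%, 9.70% and 9.33%. In barcodes with 10 or more Apol7c UMIs it was 11.7%, 18.0%, 10.0% and 8.30%, in the same order of mice. The interval of DEP 11 overlapped those of both PBS mice in each of these subsets, and over all barcodes it met that of PBS 3.

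**Figure D4:**
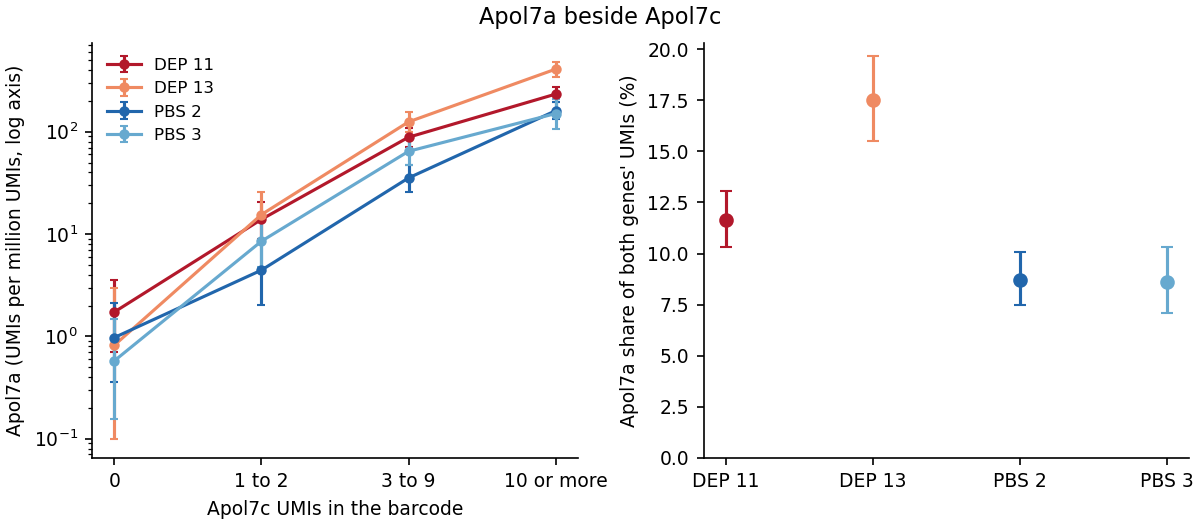
Left, Apol7a level in CPM (log axis) by the number of Apol7c UMIs in the barcode, for each mouse, with exact 95% Poisson intervals; right, Apol7a as a percentage of the UMIs of both genes, with exact 95% binomial intervals. Apol7a climbs with Apol7c in every mouse, and the share is 11.6 and 17.5% in the DEP mice against 8.72 and 8.60% in the PBS mice.

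Across barcodes, each gene was the other's closest match among 6596 genes found in at least 5% of barcodes. The measure was Pearson's r of log2(1 + UMIs per 10000) within each mouse, averaged over the 4 mice. The r of Apol7a with Apol7c was 0.65 on average. DEP 11 gave 0.65 and DEP 13 gave 0.77, against 0.63 for PBS 2 and 0.54 for PBS 3. It was 0.67 among the upper C1qa barcodes and 0.29 after thinning to 1000 UMIs. Over sums of C1qa by Ccr2 bins in place of barcodes, Apol7a was no longer the first match of Apol7c, with a mean r of 0.89 against 0.92 for Jaml. Rgs10, C1qa, Tlr12 and Ccdc34 also ranked above Apol7a there. Barcodes of a mouse share a library and vary in depth, and genes with shared sequence can share reads, so these values are a description.

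After Apol7a, the genes most like Apol7c were Jaml, a junctional adhesion molecule-like receptor (mean r 0.39, range 0.32 to 0.43 over mice), Dnase1l3, a secreted DNase (0.37) and Gbp2b, an interferon-inducible GTPase (0.34). The tetraspanin Cd81 (0.33), Pxdc1 (0.32), the extracellular matrix protein Ecm1 (0.32), the complement genes C1qc (0.31) and C1qa (0.30) and the membrane protein Ms4a7 (0.30) completed the 10. Among the upper C1qa barcodes the mean r with Apol7c was 0.12 for C1qc, 0.01 for C1qa and 0.10 for Ms4a7. It was 0.35 for Jaml in those barcodes. Those most like Apol7a after Apol7c were Jaml (0.27), Dnase1l3 (0.27), Gbp2b (0.26), Pxdc1 (0.26), the tetraspanin Cd9 (0.24), Cd81 (0.23), Ecm1 (0.22), the C-type lectin Clec4n (0.22) and the acid phosphatase Acp5 (0.22). The 2 sets shared 6 genes. The lowest r for both genes came from Plac8, Ifitm3, S100a6, S100a4 and Alox5ap, which monocytes express, between -0.26 and -0.24 for Apol7c and between -0.16 and -0.15 for Apol7a. Among the upper C1qa barcodes these values lay between -0.15 and -0.02 for Apol7c and between -0.09 and -0.0006 for Apol7a.

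**Figure D5:**
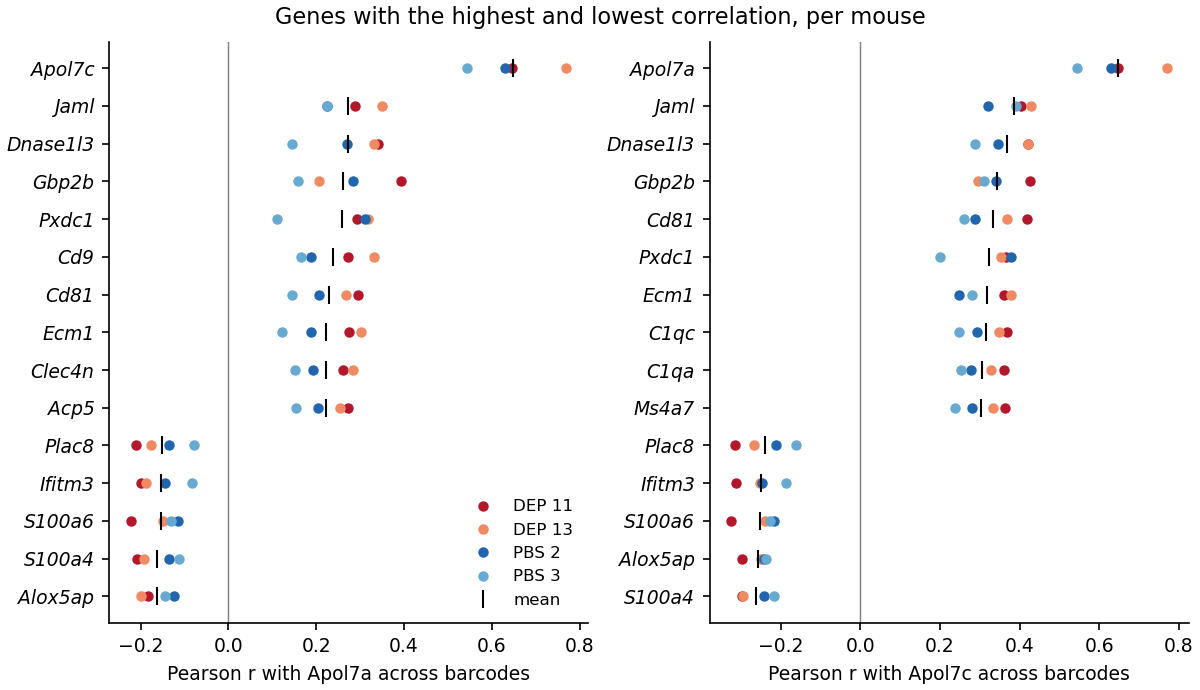
Pearson's r across the barcodes of each mouse between Apol7a (left) or Apol7c (right) and the 10 genes with the highest and the 5 with the lowest mean r. Points are mice and ticks are means over 4 mice; the other member of the pair is at a mean of 0.65, and Jaml follows at 0.27 and 0.39.

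Of these like genes, Dnase1l3, Gbp2b, Jaml, Cd9 and Ecm1 lay higher in both DEP mice, as did 13.8% of all genes, and none passed the threshold over all genes (adjusted p of 0.997 by edgeR). Dnase1l3 stood at 150 and 148 CPM in the DEP mice against 95.0 and 106 in the PBS mice, a log2 fold change of 0.57 (SE 0.15). Gbp2b was at 78.2 and 51.6 against 35.5 and 49.3. Jaml was at 122 and 131 against 82.3 and 110. Cd9 was at 286 and 288 against 177 and 242 and Ecm1 at 344 and 404 against 322 and 240. Cd81, at 1348 and 1393 against 1416 and 1315, overlapped, as did Pxdc1, Clec4n, Acp5, C1qa, C1qc and Ms4a7.

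Pathways linked to the apolipoprotein L family were described by gene lists. The median log2 fold change of all genes was -0.0069, and edgeR called 0 genes of any list. Of 17 measured type I interferon response genes the median was -0.16, and 5 lay lower in both DEP mice, as did 12.8% of all genes, while 1 lay higher (13.8% of all genes did). Rsad2, the antiviral viperin, was among the 5 (16.5 and 7.57 against 24.8 and 18.7 CPM). Across barcodes their median r with Apol7c was -0.02, against 0.02 for all 6596 genes ranked. Of 14 type II interferon response genes the median was 0.15, and their median r with Apol7c was 0.06. The chemokine Cxcl9 was at 83.1 and 28.2 against 24.7 and 31.6, and the chemokine Cxcl10 was at 70.2 and 54.4 against 109 and 82.3. Of 20 NF-kB and Toll-like receptor feedback genes the median was -0.12, with 4 lower and 2 higher in both DEP mice (12.8% and 13.8% of all genes were). Phagosome and cross-presentation genes (18 tested) had a median of 0.03 and lipid transport genes (18 tested) a median of -0.02, with 4 of the latter higher in both DEP mice, as were 13.8% of all genes. The cholesterol exporter Abca1 was among them, at 28.9 and 34.7 against 23.5 and 26.4.

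Genes next to the Apol cluster on chromosome 15 were also read. Of 15 such neighbours, 8 were tested, with a median log2 fold change of -0.02, and 1 lay higher and 1 lower in both DEP mice, against 13.8% and 12.8% of all genes. The cytokine receptor subunit Csf2rb2 was at 21.2 and 23.2 against 19.9 and 15.7 CPM. Within the cluster, Apol10b was at 4.64 and 5.28 CPM in the DEP mice and at 2.09 and 2.49 in the PBS mice. Those values come from 34, 23, 21 and 24 UMIs and did not overlap. Apol10b did not pass the filter on low counts, and without that filter its log2 fold change was 1.07 (SE 0.40), with an adjusted p of 0.433 by edgeR. Besides Apol7a and Apol7c, no Apol gene passed the filter.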

How the data were processed

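Single-cell RNA sequencing with 10x Genomics 3′ v2 chemistry was read from a deposited table of raw UMI counts, whole numbers per gene and barcode that the authors had left unscaled. Cell Ranger, STAR 2.6.1a, R 3.5.1 and mm10 are named in the submitters' processing notes. The annotation used and any earlier barcode filter were "not given in the sources used here". Each barcode was given to the mouse whose sample title is its suffix. Symbols and positions came from GENCODE M21, and 28339 of 28692 genes had a symbol.

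Barcodes with at least 1000 UMIs were kept (4357153 to 10063287 UMIs per mouse). The replicate was the mouse, and UMIs were summed per mouse. Intervals are 95% and cover counting error only. DEP and PBS were compared with edgeR 4.0.16 (quasi-likelihood, TMM, R 4.3.3) on genes over 1 CPM in at least 2 mice that were found in 5% or more of the barcodes, with Benjamini-Hochberg adjustment at 5%, in all barcodes and in those at or above the median C1qa level of their mouse. Lymphoid-marked barcodes had at least 5 UMIs of T cell, B cell and plasma cell markers, and more of these than of macrophage markers. Doublets were scored with scrublet (scanpy 1.11.5) and kept. Scripts were tested on simulated data.

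Genes named beside the pair were the Apol family, the 10 genes with the highest and 5 with the lowest mean correlation, and at most 4 genes of each list, those with the smallest p. Single markers of macrophages and dendritic cells were chosen outside this rule, after values were seen. Alternatives were DESeq2 1.42.0, its size factors, no gene filter, other UMI minimums (500 and 2000), thinning, leaving out lymphoid-marked or doublet barcodes, leaving out each mouse, and other bins. The genes, lists and alternatives were chosen with earlier results of these data known. No protein sequence was used.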

Additional observations from a re-analysis of the deposited data

How the results depend on the processing

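The DEP to PBS differences of Apol7a and Apol7c kept their direction under every alternative run. Leaving out each mouse gave log2 fold changes of 1.32 to 2.01 for Apol7a and 0.61 to 1.13 for Apol7c over all barcodes, and 1.44 to 2.07 and 0.73 to 1.16 in the upper C1qa barcodes. It gave 2.99 to 8.86 percentage points for the Apol7a share. Apol7a did not pass the gene filter after thinning, so it has no fitted value there. Of 92 recomputed values with a spread over mice (level ratios, share and correlation), 88 stayed within that spread and 4 moved. For some ratios the spread was so wide that staying within it says little. For Apol7a by C1qa it was 1.99 log2 units, with 0 Apol7a UMIs in the reference barcodes. That log2 ratio was 2.25, but 0.53 after thinning and 4.04 against the lower tercile. For Apol7a by Ccr2 the spread was 1.72, and the log2 ratio went from -2.07 to -0.89 with 2 equal bins. The fitted fold changes and the counts of shared genes have no such spread, and all 50 recomputed fold changes were higher in DEP. The log2 ratio of the upper Ly6c2 tercile to Ly6c2-free barcodes, -4.58 for Apol7a and -3.44 for Apol7c, became -2.58 and -2.05 after thinning to 1000 UMIs, and -3.76 for Apol7a with 2 equal bins in place of terciles. The correlation of the pair fell to 0.293 after thinning. Of the 10 genes most like Apol7c, 6 were shared with the upper C1qa barcodes and 3 with sums over C1qa by Ccr2 bins, where 2 of those of Apol7a were shared. The lower tercile as the reference in place of barcodes without a UMI was chosen after seeing the data.

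Counts of called genes varied. Over all barcodes edgeR called 0, DESeq2 4 and edgeR without the gene filter 119; it called 8 without DEP 11, 7 without DEP 13, 24 without PBS 2 and 35 without PBS 3. In the upper C1qa barcodes edgeR called 2, DESeq2 4 and no gene filter 77; it called 9 without DEP 13, 69 without PBS 2, 112 without PBS 3 and 2 without DEP 11. It called 6 at a minimum of 2000 UMIs and 0 at 500 UMIs, 0 without lymphoid-marked barcodes, 0 without doublets and 0 after thinning. The cause was not tested. A fit that leaves out 1 mouse takes the lone mouse to vary like the others. No paired analysis was possible because the DEP and PBS mice share no replicate number. With 2 mice a group and 102 to 253 Apol7a UMIs per mouse, the spread between mice limits the differences more than counting does.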
